A study of Rattus norvegicus with 6 samples.

Results

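The genes described here charge tRNAs with amino acids or belong to the amino acid response that the transcription factor ATF4 drives. There are 40 of them by name, and they were taken by symbol from the deposited table of transcript values, with the most abundant row standing for each symbol. Of the 40 genes, 38 were analysed, out of 16499 symbols in the table. They comprise 19 of 20 cytosolic aminoacyl-tRNA synthetases, all 5 enzymes of serine and one-carbon metabolism, all 4 other enzymes of amino acid metabolism, all 5 amino acid transporters and 5 of 6 stress factors. Gars was not analysed here, and Sesn2 is described only through a row that carries an older symbol.

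Aminoacyl-tRNA synthetases join each amino acid to its own tRNA, the step that fixes the reading of the genetic code. When amino acids run short or the endoplasmic reticulum is under stress, kinases phosphorylate the initiation factor eIF2, general translation falls, and the mRNA of ATF4 is translated more. ATF4 then pairs with C/EBP proteins at promoters of genes for the making, uptake and tRNA charging of amino acids, so that supply is restored. ATF4 is controlled in large part at translation, and the libraries measured mRNA only.

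All groups used fibroblast-like cells of the joint lining (synovium) taken from female Wistar rats with collagen-induced arthritis and grown in culture. Cells of 2 rats were each split over 3 culture media, which made 3 groups with 1 library per rat. The FBS group grew in medium with fetal bovine serum. The MS− group received blood serum from rats without treatment, and the MS+ group received blood serum that stimulated rats gave on day 18 of mechanical stimulation by needle, called acupuncture in the labels. How many animals gave the serum used in culture is not stated; a number of serum samples is given for the protein assays alone. The MS− rats are healthy in 1 field of their labels and arthritic in the others, and the study describes the MS− serum both as drawn before therapy and as drawn from untreated animals. A replicate is therefore a rat that gave cells, not a serum donor, and p-values measure the spread between these libraries.

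Promoter sequences are shown for the members that hold the letters of the amino acid response element, TGATGNAA, a site at which ATF4 with a C/EBP partner can bind. RefSeq windows of assembly GRCr8 that run from 250 bases before to 50 bases after the start site were matched to 35 of the 38 members and searched on both strands. Dars, Rars and Aldh18a1 had no window. The motif was found for 11 of the 35 members (31.4%), against 3.98% of all 33469 windows of that length. The first share counts members and the second windows, and Slc3a2 had 2 windows. It was found for 7 of 17 synthetases with a window and for 4 of 18 other members with a window. In 9 of the 11 members the open position was C, which held for 0.795% of all windows, a split made after the matches were seen. The stretches below run 5′ to 3′ along each gene, with the motif, on either strand, in capitals.
Aars1, chr19:55908344-55908403, + strand: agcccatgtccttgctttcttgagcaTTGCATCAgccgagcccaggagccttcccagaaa
Cars1, chr1:208225334-208225363, − strand: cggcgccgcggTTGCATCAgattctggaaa
Iars1, chr17:15193653-15193702, − strand: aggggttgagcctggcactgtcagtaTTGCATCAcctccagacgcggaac
Mars1, chr7:65023754-65023796, − strand: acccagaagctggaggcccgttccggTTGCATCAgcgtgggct
Nars1, chr18:60275783-60275822, − strand: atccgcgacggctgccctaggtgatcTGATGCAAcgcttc
Tars1, chr2:62114803-62114855, − strand: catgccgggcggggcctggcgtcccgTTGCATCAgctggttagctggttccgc
Yars1, chr5:146820190-146820212, + strand: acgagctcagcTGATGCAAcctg
Pycr1, chr10:106420910-106420969, − strand: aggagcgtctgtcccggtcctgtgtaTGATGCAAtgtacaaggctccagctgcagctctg
Slc7a1, chr12:11664432-11664487, + strand: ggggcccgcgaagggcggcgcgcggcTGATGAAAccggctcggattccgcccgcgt
Trib3, chr3:161275534-161275580, − strand: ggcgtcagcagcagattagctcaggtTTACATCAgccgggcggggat
Chac1, chr3:126795938-126795997, + strand: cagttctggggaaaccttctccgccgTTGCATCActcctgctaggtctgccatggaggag

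Most of these matches lay within 30 bases of the start site. The one of Iars1 began 24 bases before it, that of Tars1 27 bases before it and that of Nars1 14 bases before it, while those of Pycr1 and Chac1 began 131 and 167 bases before it. Aars1 held a further match 10 bases after its start. No match lay in the windows of Asns, Slc7a5, Atf4, Atf5 and the serine and one-carbon enzymes. A match of letters is a description of the window and does not show that a factor bound there.

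Library depth was 5463316 to 5991889 reads, and 9678 to 9749 features reached 1 CPM, the read count scaled to a fixed library size by the authors, in each library. The FBS libraries were the deepest (5926713 and 5991889 reads), and the rat serum libraries held 5463316 to 5708041. The cells carried the markers of their label. Of 11 fibroblast markers, 9 were at 1 CPM or more in every library, and their sum was 80411 to 87633 CPM with FBS, 62463 to 64774 CPM with MS− and 70467 to 73450 CPM with MS+. Of 8 macrophage and leukocyte markers, 5 were at 0 in all 6 libraries, among them Ptprc and Itgam. The sum was 13.8 to 14.6 CPM with FBS, 17.2 to 20.5 CPM with MS− and 16.3 to 17.7 CPM with MS+. Most of that sum was Cd14, at a mean of 15.3 CPM over the 6 libraries. The 2 chondrocyte markers analysed, nearly all of it Acan, summed to 2585 to 3013 CPM with FBS, 1453 to 1827 CPM with MS− and 2539 to 2671 CPM with MS+. Fibroblast and chondrocyte marker sums thus stood in an order like that of many members below, and their part in the results was not tested. In such bulk RNA, fewer cells of a type and less RNA per cell cannot be told apart.

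**Figure D1:**
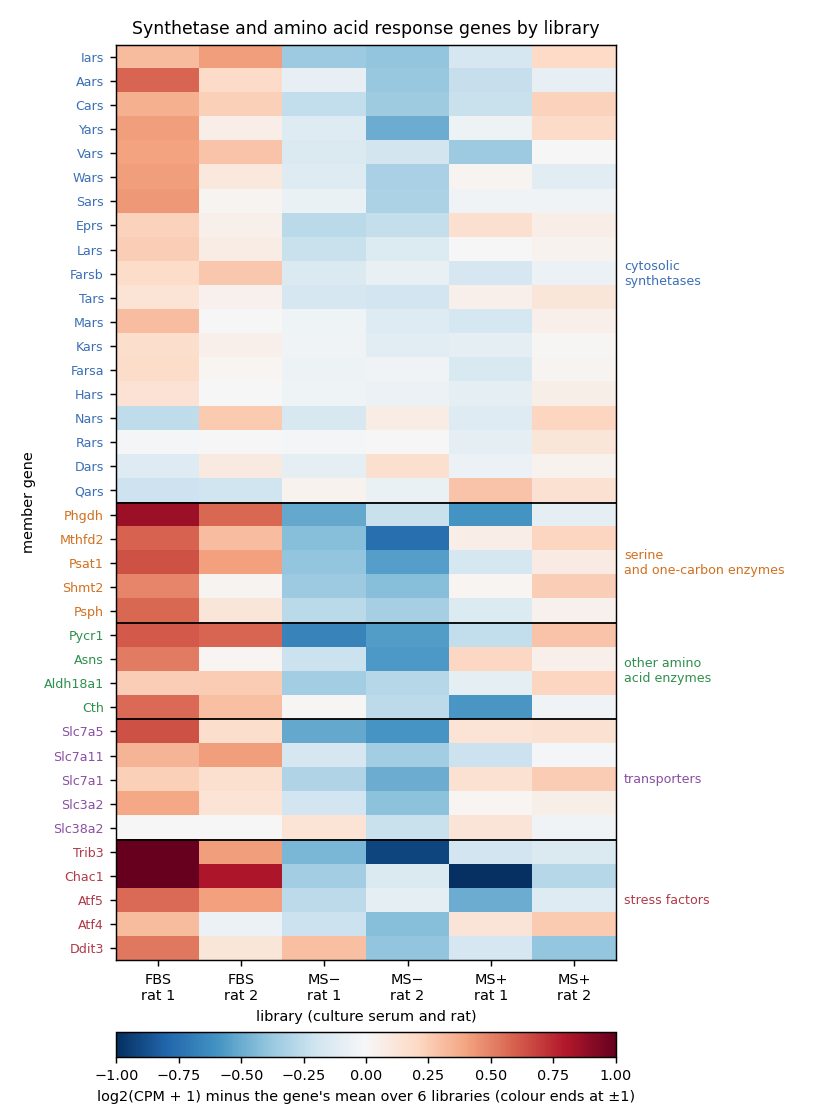
Heat map of the 38 members (rows, grouped by role) in the 6 libraries (columns, culture serum and rat), coloured by log2(CPM + 1) minus the gene's own mean over the 6 libraries. Red marks values above that mean and blue values below it; the FBS columns are mostly red, the MS− columns mostly blue, and the MS+ columns stand between them for most rows.

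Centred on each gene's own mean, the members were highest with FBS and lowest with MS−. The median over the 38 members of log2(CPM + 1) minus the gene's mean was 0.37 and 0.13 in the FBS libraries of rat 1 and rat 2, −0.18 and −0.30 in the MS− libraries, and −0.10 and 0.05 in the MS+ libraries. The FBS library of rat 1 was the highest of the 6 and the MS− library of rat 2 the lowest. The serine and one-carbon enzymes had the widest span of the role groups, from 0.59 in the FBS library of rat 1 to −0.42 in the MS− library of rat 2. The synthetases had the narrowest, from 0.23 to −0.14 in the same libraries. All 38 members passed the filter on low values, and all reached at least 1 CPM in every library, but Pycr1, Cth and Ddit3 were low. Pycr1 rested on 17 to 55 reads per library, Cth on 15 to 44 and Ddit3 on 6 to 18, where 3 reads, the floor of detection, correspond to 0.491 to 0.551 CPM by counting error alone.

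The comparison of MS− with FBS asks how cells in serum of untreated rats differed from cells in standard medium. Amino acid response genes were lower with MS−. The largest differences were those of the pseudokinase Trib3, the glutathione-degrading enzyme Chac1, the proline enzyme Pycr1, the serine enzyme Phgdh and the one-carbon enzyme Mthfd2, of which Chac1 passed with the rat as a block only. Of the 38 members, 9 fell and 0 rose at a Benjamini-Hochberg adjusted p under 0.05 in limma over all 9820 features (Iars, Phgdh, Psat1, Mthfd2, Aldh18a1, Pycr1, Slc7a5, Slc7a1 and Trib3). Of all features, 2.72% were called lower and 2.09% higher. With the rat as a block in the same model, 27 members fell and 0 rose, against 9.63% of all features called lower and 10.8% higher. The median log2 fold change of the members was −0.56, in a range of −1.54 to 0.19, and that of all features was 0.01. Within rats the median of the members was −0.55 in rat 1 and −0.49 in rat 2. The groups did not overlap in 32 members with MS− below FBS, where 24.5% of all features did so, and in 1 member, Qars, with MS− above FBS, as in 27.1% of all features. Under the thresholds of the study (unadjusted p under 0.05 and at least a 2-fold change), 5 members were lower (Phgdh, Mthfd2, Pycr1, Trib3 and Chac1), against 2.37% of all features. The unblocked calls rested on few libraries: 0 of the 9 remained without FBS replicate 1 or without MS− replicate 2, 1 (Mthfd2) without MS− replicate 1, 4 (Mthfd2, Psat1, Slc7a5 and Trib3) without FBS replicate 2 and 6 without either MS+ library, which enters through the shared estimate of the spread.

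**Figure D2:**
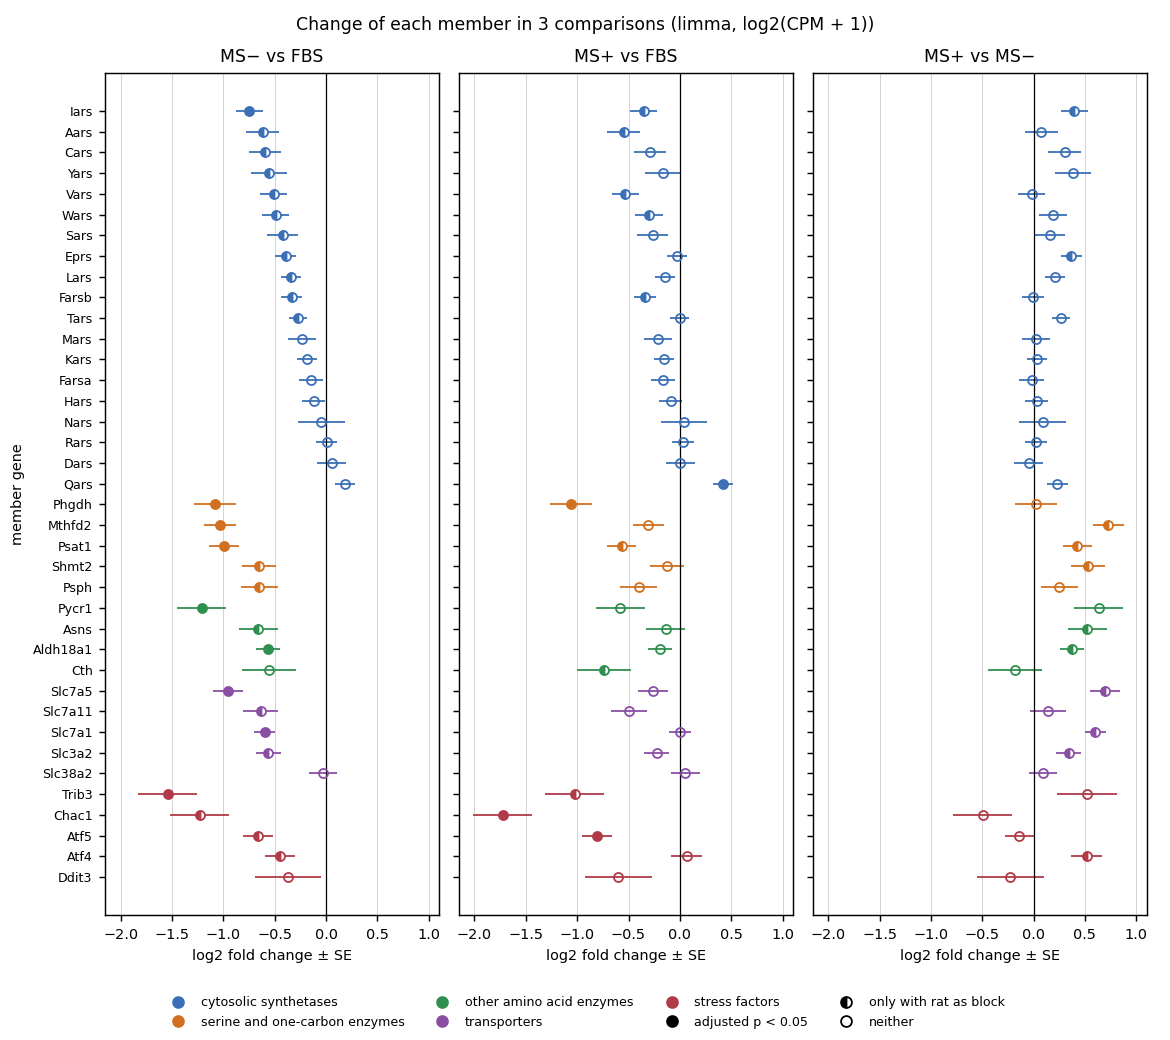
Log2 fold change (x axis, log2(CPM + 1) scale) with its standard error for each of the 38 members (rows) in the 3 comparisons (panels), from limma over 6 libraries. Filled points passed an adjusted p of 0.05, half-filled points passed only with the rat as a block and open points did neither; in MS− vs FBS 35 points lie left of 0, in MS+ vs MS− 30 lie right of it.

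Among the synthetases, Iars alone passed the unblocked threshold, and 11 of 19 fell with the block. The median of the group was −0.34. Iars, which charges tRNA with isoleucine (rn4 chr17:20895852-20942180), was at 158 and 169 CPM with FBS, 98.2 and 95.8 CPM with MS−, and 113 and 145 CPM with MS+, rat 1 first. Both MS− libraries were below all the other 4. Its log2 fold change in MS− against FBS was −0.75 ± 0.13 (SE; limma adjusted p = 0.0291). Aars, the alanine enzyme (rn4 chr19:40952408-40974425), stood at 373 and 284 CPM with FBS, 234 and 191 CPM with MS−, and 211 and 235 CPM with MS+, and its change of −0.62 ± 0.16 passed only with the block (limma adjusted p = 0.0861, 0.000769 with the block). Both FBS libraries of Aars were above every rat serum library. Cars, for cysteine (rn4 chr1:203934812-203977042), was at 95.9 and 88.4 CPM with FBS, 63.1 and 58.4 CPM with MS−, and 63.96 and 88.1 CPM with MS+, and Yars, for tyrosine (rn4 chr5:148350363-148378989), was at 119 and 92.7 CPM with FBS, 80.7 and 62.5 CPM with MS−, and 85.6 and 101 CPM with MS+. Cars fell by 0.59 and Yars by 0.55 on the log2 scale with the block (limma adjusted p = 0.00358 and 0.0057), while without it the values were 0.0928 and 0.134. Vars, the valine enzyme (rn4 chr20:3874447-3888969), stood at 188 and 173 CPM with FBS, 128 and 125 CPM with MS−, and 110.1 and 142 CPM with MS+. It fell with the block by 0.51 on the log2 scale (limma adjusted p = 0.00289, 0.0846 without it).

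Eprs, a bifunctional enzyme for glutamate and proline (rn4 chr13:101375656-101448175), was at 492 and 434 CPM with FBS, 348 and 355 CPM with MS−, and 468 and 439 CPM with MS+. Both MS− libraries of Eprs were below all others, and its change in MS− against FBS was −0.40 ± 0.10 (limma adjusted p = 0.0797, 0.00282 with the block). The remaining synthetases that fell with the block were Farsb, Lars, Sars, Tars and Wars, with log2 changes from −0.49 (Wars) to −0.27 (Tars). Farsa, Hars, Kars and Mars lay between −0.24 and −0.12, and Dars, Nars and Rars between −0.05 and 0.05, with no call in either fit. Counts of Nars and Mars are uncertain, because their rows overlap another row and reads shared by overlapping rows were dropped at counting, and Hars has a further row on another chromosome. Qars, which handles glutamine (rn4 chr16_random:1248193-1256228), was the only synthetase whose MS− libraries both lay above both FBS libraries. Its values were 73.3 and 73.8 CPM with FBS, 87.1 and 80.8 CPM with MS−, and 103 and 94.3 CPM with MS+, and the change of 0.19 ± 0.10 in MS− did not pass (limma adjusted p = 0.336, 0.19 with the block).

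The serine and one-carbon enzymes fell furthest as a group, with a median of −0.99. Unblocked, 3 of the 5 fell, and with the block all 5 did. Phgdh, which takes the first step from glycolysis to serine (rn4 chr2:193147943-193177137), was at 84.3 and 69.1 CPM with FBS, 32.01 and 39.4 CPM with MS−, and 30.1 and 43.3 CPM with MS+. Its FBS libraries lay well above the other 4, and the change in MS− was −1.08 ± 0.20 (limma adjusted p = 0.0336). Psat1, the next enzyme of the path, was at 69.7 and 59.5 CPM with FBS, 33.7 and 30.2 CPM with MS−, and 39.3 and 47.4 CPM with MS+ and changed by −0.99 ± 0.14 (limma adjusted p = 0.0147), and Psph, the last, by −0.65 ± 0.18, which passed with the block alone (limma adjusted p = 0.102, 0.00895 with the block). Mthfd2, a mitochondrial enzyme of folate-bound one-carbon units (rn4 chr4:117517611-117529128), stood at 93.5 and 76.6 CPM with FBS, 45.7 and 36.3 CPM with MS−, and 64.9 and 71.8 CPM with MS+. Every MS− value was below every other value of that gene, and the change was −1.04 ± 0.15 (limma adjusted p = 0.0164). Shmt2, which splits serine to glycine in mitochondria, was at 133 and 96.5 CPM with FBS, 73.2 and 70.1 CPM with MS−, and 95.7 and 113 CPM with MS+ and changed by −0.65 ± 0.16 (limma adjusted p = 0.0791, 0.00169 with the block).

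Of the 4 other enzymes, Aldh18a1 and Pycr1 fell unblocked and Asns with the block. Asns, which makes asparagine and is a textbook target of ATF4 (rn4 chr4:32758868-32776220), was at 275 and 194 CPM with FBS, 165 and 128 CPM with MS−, and 221 and 198 CPM with MS+. The rats differed within each serum, with rat 1 above rat 2 throughout, and the MS− libraries were below both others of the same rat. Its change in MS− was −0.66 ± 0.19 (limma adjusted p = 0.111, 9.24e-05 with the block). Pycr1, which completes proline synthesis (rn4 chr10:110032072-110035380), was low but separated, at 9.003 and 8.79 CPM with FBS, 3.11 and 3.43 CPM with MS−, and 4.50 and 6.97 CPM with MS+. Its change was −1.21 ± 0.24 (limma adjusted p = 0.0386). Aldh18a1, the enzyme upstream of it, changed by −0.57 ± 0.12 (limma adjusted p = 0.0455), and in cells of rat 1 and rat 2 by −0.59 and −0.54. Cth, which yields cysteine from cystathionine (rn4 chr2:256056562-256082248), was at 7.20 and 5.80 CPM with FBS, 4.57 and 3.62 CPM with MS−, and 2.70 and 4.40 CPM with MS+, and its change of −0.56 ± 0.26 passed in neither fit.

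Of the 5 transporters, Slc7a5 and Slc7a1 fell unblocked and 4 of 5 with the block. Slc7a5, the light chain of the exchanger for large neutral amino acids (rn4 chr19:52120728-52149332), stood at 417 and 303 CPM with FBS, 188 and 178 CPM with MS−, and 296 and 298 CPM with MS+. The MS− pair was low and close together, below all other libraries, and the change was −0.96 ± 0.15 (limma adjusted p = 0.0191). Slc3a2, the heavy chain that partners it, changed by −0.57 ± 0.12 (limma adjusted p = 0.0508, 0.000294 with the block). Slc7a1, a carrier of arginine and lysine, was at 141 and 133 CPM with FBS, 96.4 and 84.2 CPM with MS−, and 132 and 142 CPM with MS+ and changed by −0.60 ± 0.10 (limma adjusted p = 0.0287). Slc7a11, the cystine importer that also serves glutathione supply, changed by −0.64 ± 0.17 (limma adjusted p = 0.0983, 0.025 with the block). Slc38a2, a carrier of small neutral amino acids, differed in direction between rats, by 0.14 in rat 1 and −0.21 in rat 2.

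Among the stress factors, Trib3 had the largest fall of the 38 members in this comparison. Trib3 binds and restrains other stress proteins (rn4 chr3:142664651-142670135), and it stood at 85.8 and 46.4 CPM with FBS, 24.9 and 17.7 CPM with MS−, and 30.1 and 31.02 CPM with MS+. The FBS libraries of the 2 rats were themselves far apart, but both were above every rat serum library, and the change was −1.54 ± 0.29 (limma adjusted p = 0.0336). Chac1, which degrades glutathione (rn4 chr3:105870108-105873318), was at 122 and 95.2 CPM with FBS, 42.3 and 48.8 CPM with MS−, and 23.1 and 44.05 CPM with MS+. It changed by −1.23 ± 0.29 and passed with the block (limma adjusted p = 0.0637, 0.000269 with the block). Atf4 itself (rn4 chr7:118537718-118538994) stood at 655 and 503 CPM with FBS, 452 and 390.3 CPM with MS−, and 576 and 629 CPM with MS+, and its change of −0.45 ± 0.15 also passed only with the block (limma adjusted p = 0.149, 0.005 with the block). Atf5, a related factor under translational control of the same kind, was at 819 and 736 CPM with FBS, 461 and 519 CPM with MS−, and 391 and 504 CPM with MS+ and changed by −0.67 ± 0.14 (limma adjusted p = 0.0516, 0.000229 with the block). Ddit3, also called CHOP, was near the limit at 1.08 to 2.95 CPM, and its row overlaps a further Ddit3 row and, by 62 bases, the row of Mars, so its counts are uncertain. The accession of Sesn2, a sensor in leucine signalling, stood under RGD1566319 at 35.2 and 30.7 CPM with FBS, 29.5 and 23.3 CPM with MS−, and 31.7 and 29.9 CPM with MS+, with no call in any comparison.

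**Figure D3:**
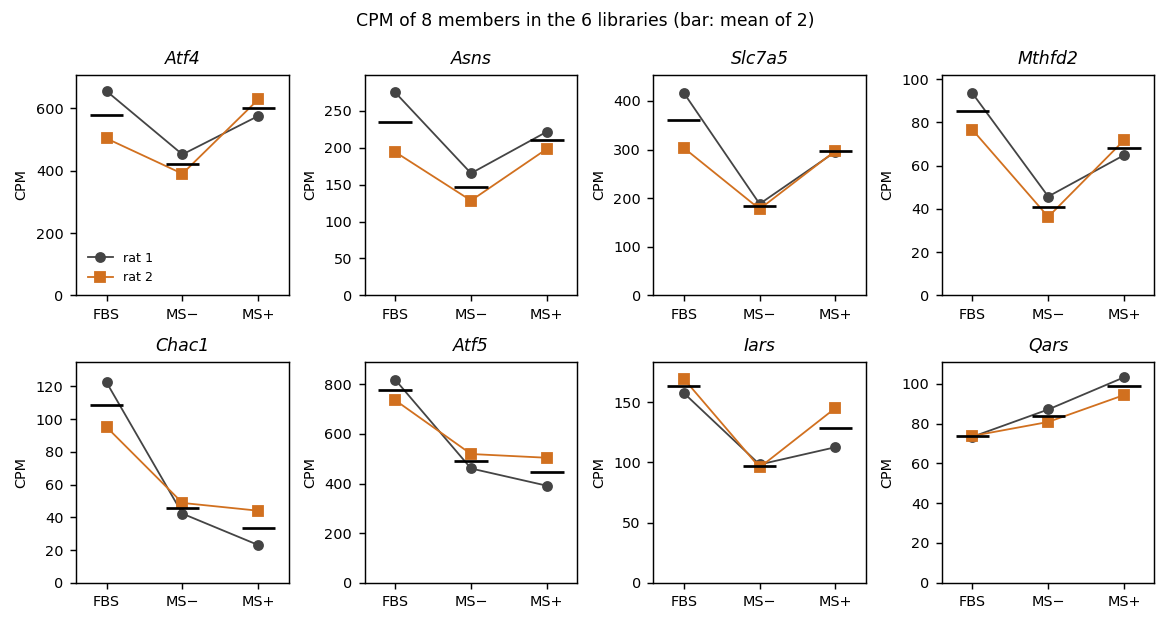
CPM (y axis, linear from 0) of 8 members with FBS, MS− and MS+ (x axis). Circles joined by a line are cells of rat 1, squares cells of rat 2, and bars the mean of both; Atf4, Asns, Slc7a5, Mthfd2 and Iars are lowest with MS− in both rats, Chac1 and Atf5 are low in both rat sera, and Qars is highest with MS+.

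The comparison of MS+ with FBS sets serum of stimulated animals against standard medium, and it shares its FBS libraries with the comparison above. Chac1, Atf5 and Phgdh fell and Qars rose (limma with Benjamini-Hochberg adjustment), which is 3 lower and 1 higher of 38 members where 4.66% of all features were called lower and 4.95% higher. With the block 11 members fell and 1 rose, against 13.9% of all features called lower and 14.4% higher. The median over the members was −0.24, and 0.00 over all features, but the rats differed, with −0.47 in rat 1 and −0.05 in rat 2. Members whose MS+ libraries lay below both FBS libraries numbered 23, against 28.3% of all features. Under the thresholds of the study 3 members were lower (Phgdh, Trib3 and Chac1), against 2.92% of all features. None of the 4 calls remained without FBS replicate 1, without FBS replicate 2 or without MS+ replicate 1, and in the second of these Trib3 was called instead. Qars was lost whichever library was left out (limma adjusted p 0.0782 to 0.208).

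Chac1 had the largest change of any member in the 3 comparisons. In MS+ against FBS it was −1.73 ± 0.29 (limma adjusted p = 0.0172), with −2.36 in cells of rat 1 and −1.09 in cells of rat 2, so that its size differed between rats while its direction did not. Atf5 changed by −0.80 ± 0.14 (limma adjusted p = 0.022) and Trib3 by −1.02 ± 0.29, which passed with the block (limma adjusted p = 0.074, 0.000309 with the block). Atf4 had a change of 0.07 ± 0.15 that was −0.19 in rat 1 and 0.32 in rat 2, and its FBS and MS+ libraries overlapped. Without FBS replicate 2 its change was −0.12.

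Phgdh was low in both rat sera, with −1.06 ± 0.20 in MS+ against FBS (limma adjusted p = 0.0258). Psat1 changed by −0.57 ± 0.14 and passed with the block (limma adjusted p = 0.0556, 0.00391 with the block). Mthfd2 and Shmt2 passed in neither fit, with −0.31 and −0.13, and without FBS replicate 1 the value of Shmt2 was 0.10. Cth fell with the block by 0.74 on the log2 scale (limma adjusted p = 0.042, 0.127 without it), on 15 and 24 reads with MS+. Asns passed in neither fit. Its change was −0.14 ± 0.19, −0.31 in rat 1 and 0.03 in rat 2, and 0.11 without FBS replicate 1.

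Of the synthetases, Aars, Farsb, Iars, Vars and Wars fell with the block in MS+ against FBS, from −0.54 (Aars) and −0.53 (Vars) to −0.30 (Wars). Their median was −0.16. Qars, in contrast, was higher with MS+ than with FBS in both rats, by 0.49 and 0.35, and its change was 0.42 ± 0.10 (limma adjusted p = 0.0453, 0.00376 with the block). This call was lost with scaling to library totals in place of the authors' TMM factors, in DESeq2 and without the filter on low values (adjusted p = 0.0616, 0.0782 and 0.057), and it held in edgeR and limma-voom. No transporter passed in either fit, and Slc7a1 was nearly level at 0.00.

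The comparison of MS+ with MS− sets cells in serum of stimulated animals against cells in serum of untreated ones. It shares the MS− libraries with the first comparison and the MS+ libraries with the second. The MS+ serum was drawn during treatment, and the MS− serum, by the study's methods, before any therapy. Stimulation, time of drawing and stage of arthritis can therefore differ together between these sera, and their separate parts were not tested. In cells of both rats, Slc7a5, Slc7a1, Mthfd2, Asns, Shmt2 and Atf4 had higher values with MS+. Their fitted changes over both rats were 1.43 to 1.66 times. Within single rats their log2 differences ran from 0.35 (Atf4 in rat 1) to 0.96 (Mthfd2 in rat 2). None of the 38 members passed the adjusted threshold in unblocked limma, where 0.0204% of all features (2 of 9820) did. At an unadjusted p under 0.05, 13 members were higher and 0 lower, against 7.53% and 7.2% of all features. In limma-voom 13 members and in edgeR 14 were higher at an unadjusted p under 0.05 (7.84% and 7.91% of all features), with 0 past the adjusted threshold in either. DESeq2 called 3 members higher, against 0.947% of all features, Mthfd2, Slc7a5 and Slc7a1 (adjusted p = 0.0406, 0.0144 and 0.0107).

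With the rat as a block, 11 members rose and 0 fell, against 5.27% of all features called higher and 4.78% called lower. They were Eprs, Iars, Psat1, Shmt2, Mthfd2, Asns, Aldh18a1, Slc7a5, Slc7a1, Slc3a2 and Atf4, and a blocked edgeR fit called the same 11. The rats are named in the labels of every group, so the block follows the design. The median of the members was 0.20 and that of all features −0.01, with 0.06 in rat 1 and 0.29 in rat 2. Members whose MS+ libraries both lay above both MS− libraries numbered 21, against 22.6% of all features, and 0 lay below, against 23.1%. No member reached the thresholds of the study, which 0.845% of all features passed as higher and 0.397% as lower.

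**Figure D4:**
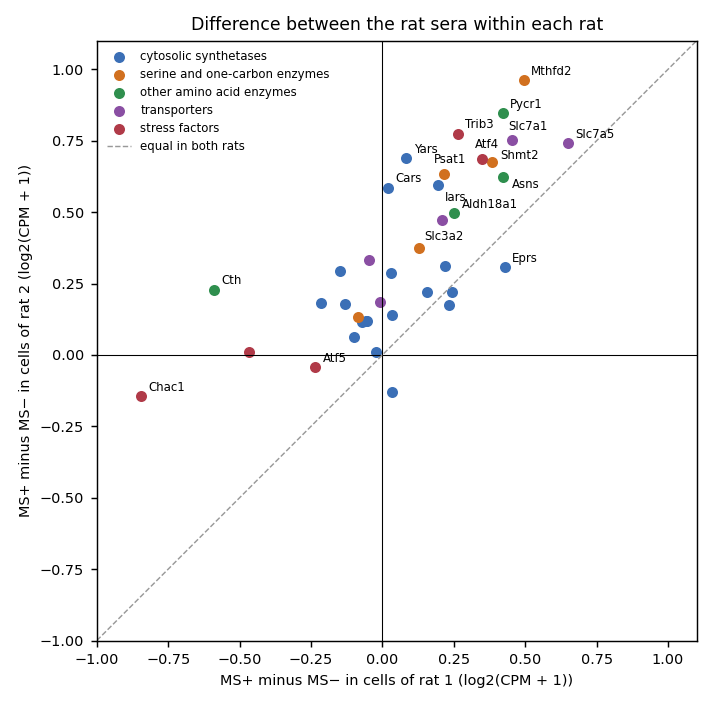
Difference between MS+ and MS− in log2(CPM + 1) for each of the 38 members, in cells of rat 1 (x axis) and of rat 2 (y axis), coloured by role, with a dashed line where both rats are equal. Mthfd2, Pycr1, Slc7a1 and Slc7a5 are high in both rats, most points lie above the dashed line, and Chac1 and Atf5 are below 0 in both rats.

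Slc7a5 had close to the same difference in each rat, 0.65 in rat 1 and 0.74 in rat 2, and its fitted change was 0.69 ± 0.15 (limma adjusted p = 0.141, 0.000528 with the block). Slc7a1 changed by 0.60 ± 0.10 (limma adjusted p = 0.116, 0.00105 with the block). The arginine carrier and the large neutral exchanger were thus the transporters with the largest differences, and Slc3a2 followed with 0.34 ± 0.12 (limma adjusted p with the block = 0.0236). The difference of Slc3a2 was 0.21 in rat 1 and 0.47 in rat 2. Slc7a11 and Slc38a2 passed in neither fit, at 0.14 and 0.09.

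Mthfd2 had the largest difference of all members, 0.73 ± 0.15 (limma adjusted p = 0.138, 0.00139 with the block), which was 0.49 in rat 1 and 0.96 in rat 2. Shmt2, its partner in mitochondrial one-carbon metabolism, had a change of 0.53 ± 0.16 (limma adjusted p with the block = 0.0147). Psat1 passed narrowly with the block (0.42 ± 0.14, limma adjusted p = 0.0495), with 0.22 in rat 1 and 0.63 in rat 2. Phgdh had a value of 0.02 ± 0.20, and its rats were of opposite sign. Asns changed by 0.52 ± 0.19 (limma adjusted p = 0.283, 0.00226 with the block). Its standard error was 0.19 without the block and 0.09 with it, and its 2 rats differed at every serum. Aldh18a1 rose with the block by 0.37 (0.25 in rat 1 and 0.50 in rat 2), and Pycr1, at 0.63, did not pass (limma adjusted p = 0.0929 with the block).

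Of the 19 synthetases, Iars and Eprs rose with the block, by 0.39 and 0.37 on the log2 scale (limma adjusted p = 0.0206 and 0.00987, against 0.251 and 0.196 without it). The median of the synthetases was 0.09. Yars, Cars and Tars had values of 0.39, 0.30 and 0.27 and passed in neither fit. In Yars and Cars the difference came mainly from rat 2 (0.69 and 0.59), with 0.08 and 0.02 in rat 1. Iars was also uneven, at 0.20 in rat 1 and 0.59 in rat 2, while Eprs was at 0.43 and 0.31.

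Atf4 mRNA was at 452 and 390.3 CPM with MS− and at 576 and 629 CPM with MS+. Its difference was 0.52 ± 0.15, higher in both rats (limma adjusted p = 0.208, 0.00439 with the block). The other stress factors gave no call. Trib3 was at 0.52, Chac1 at −0.50, Atf5 at −0.14 and Ddit3 at −0.23 on the log2 scale. The last pair changed sign without 1 library, Atf5 to 0.04 without MS+ replicate 1 and Ddit3 to 0.12 without MS− replicate 1. Chac1 was lower with MS+ in both rats, by −0.85 and −0.14, and its groups overlapped. The difference between Atf4 and these factors was not tested.

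**Figure D5:**
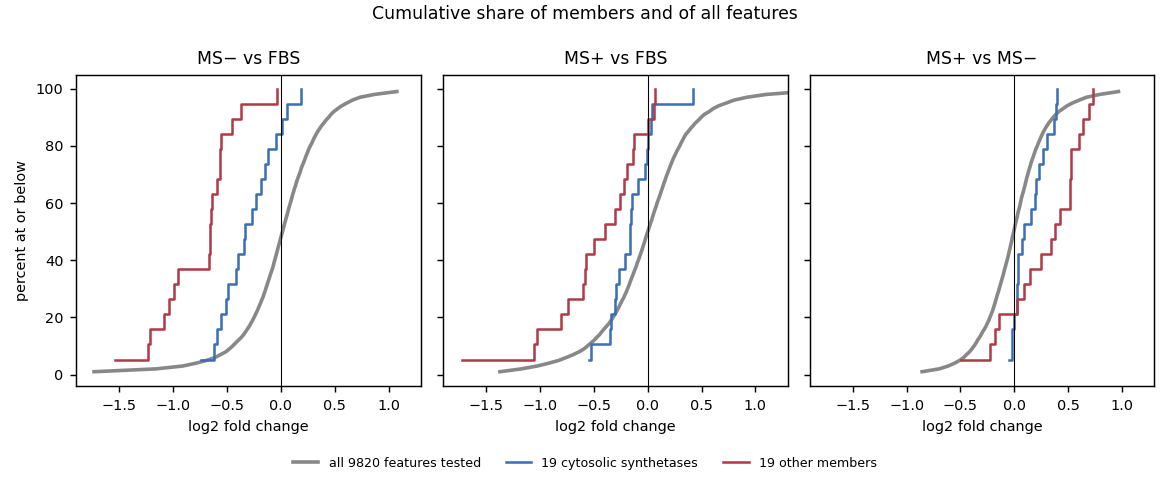
Cumulative share (y axis, percent at or below) of log2 fold changes (x axis) for the 19 cytosolic synthetases, the 19 other members and all 9820 features tested, in the 3 comparisons (panels). In MS− vs FBS both member curves lie left of the curve of all features, whose median is 0.01, and in MS+ vs MS− they lie right of it for most members.

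The role groups had these medians of log2 fold change. The serine and one-carbon enzymes had −0.99 in MS− against FBS, −0.40 in MS+ against FBS and 0.42 in MS+ against MS−. The transporters had −0.60, −0.22 and 0.34, and the 4 other enzymes −0.61, −0.39 and 0.45. The stress factors had −0.67, −0.80 and −0.14, and in the last of these their values ran from −0.50 for Chac1 to 0.52 for Trib3, with a median of 0.12 without MS− replicate 1 and 0.04 without MS+ replicate 1. Since each pair of comparisons shares libraries, these medians are not independent of each other. The 9 members called in no comparison in either fit were Dars, Farsa, Hars, Kars, Mars, Nars, Rars, Slc38a2 and Ddit3.

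Members with and without the TGATGNAA letters were set side by side, with no test. In MS− against FBS the median was −0.60 over 11 members with the motif and −0.50 over 24 without it, in MS+ against FBS it was −0.29 and −0.26, and in MS+ against MS− it was 0.30 and 0.17. Synthetases that belong to the large multi-synthetase complex had a median of −0.21 in MS− against FBS (8 genes), and those outside it −0.42 (11 genes), a split made after the values were seen. Within the complex the values ran from −0.75 for Iars to 0.19 for Qars. Outside it Aars had the lowest and Nars the highest value, −0.62 and −0.05. The medians within and outside the complex were −0.08 and −0.26 in MS+ against FBS. In MS+ against MS− they were 0.12 and 0.09.

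Related genes that are not members gave a mixed picture. Of 13 mitochondrial synthetases tested, 0 passed in MS− against FBS in either fit. With the block 9.63% of all features were called lower there and 10.8% higher. In MS+ against FBS Tars2 alone passed, with the block (−0.53 ± 0.20 on the log2 scale, limma adjusted p = 0.0283 with the block). That is 7.69% of the 13 called lower, against 13.9% of all features. Of 7 folate and glycine enzymes tested, Mthfd1l alone fell unblocked in MS− against FBS, by 1.27 on the log2 scale (limma adjusted p = 0.0403). Of all features, 2.72% were called lower. Aldh1l2, the mitochondrial enzyme that oxidises formyl-folate, rose in MS+ against MS− with the block, at 73.2 ± 9.03 CPM with MS− and 149.5 ± 24.2 CPM with MS+ (mean ± SD, n = 2; limma adjusted p = 0.109, 0.00013 with the block). It alone of the 7 rose, where 5.27% of all features did. Of 15 other amino acid transporters, 2 rose and 1 fell with the block in MS+ against MS−, against 5.27% and 4.78% of all features, while against FBS the largest changes were in Slc7a2 and Slc7a8 (1.43 and −1.32 with MS+), both under 6 CPM.

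Other genes tied to ATF4 did not move one way. Of 16 tested, 3 rose and 3 fell with the block in MS+ against MS−, where 5.27% of all features rose and 4.78% fell. Vldlr, Pck2 and Sesn3 rose, and Atf3, Ddit4 and Nupr1 fell. In MS− against FBS 3 rose and 6 fell, against 10.8% and 9.63%. In MS+ against FBS 3 rose and 5 fell with the block, against 14.4% and 13.9%. Cebpb, the gene of a C/EBP protein, had the largest rise of the list in MS+ against FBS. It rose by 1.16 on the log2 scale and passed without the block (limma adjusted p = 0.00515). Nupr1, a stress-induced chromatin protein, was at 379.7 ± 55.7, 265 ± 57.6 and 151 ± 34.8 CPM with FBS, MS− and MS+ (mean ± SD, n = 2), and fell in MS+ against FBS by 1.33 on the log2 scale (limma adjusted p = 0.0147). Atf3, a stress factor that ATF4 can induce, was at 8.23 ± 2.49, 6.82 ± 1.21 and 3.08 ± 1.76 CPM and fell in MS+ against FBS with the block (limma adjusted p = 0.000963, 0.0792 without it). Of 9 genes of eIF2 and its control, 1 rose and 1 fell with the block in MS− against FBS, against 10.8% and 9.63% of all features. In MS+ against FBS 1 rose and 0 fell, against 14.4% and 13.9%. The 1 that rose was in both cases Eif2ak3, the kinase that responds to stress of the endoplasmic reticulum (0.45 with MS− and 0.44 with MS+). Eif2ak1, the haem-regulated kinase, fell with the block in MS+ against MS− by 0.36 on the log2 scale (limma adjusted p = 0.0456). It alone of the 9 was called there, where 4.78% of all features fell and 5.27% rose. The amino acid sensing kinase Eif2ak4 passed in no comparison.

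Genes of the endoplasmic reticulum stress response had medians of −0.47 in MS− against FBS and 0.51 in MS+ against MS− over 9 tested. With the block 7 of the 9 fell in the former, against 9.63% of all features, and 6 rose in the latter, against 5.27%. Hspa5, the main chaperone of that compartment, was at 950.3 ± 9.01 CPM with FBS, 546 ± 21.5 CPM with MS− and 849 ± 99.5 CPM with MS+ (mean ± SD, n = 2), and its fall in MS− passed without the block (limma adjusted p = 0.0131). Creld2, a secreted stress protein, fell in MS− by 0.86 on the log2 scale (limma adjusted p = 0.0341). In MS+ against FBS the median of the list was 0.03, where that of the members was −0.24. With the block 1 rose and 2 fell there, against 14.4% and 13.9% of all features. Values of this list thus moved with those of the members in MS− against FBS and in MS+ against MS−. The part of the list in the members' values was not tested.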

How the data were processed

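The libraries were poly(A)-selected and sequenced by a company on an Illumina instrument. Low-quality reads were removed there. Per the labels and methods, the authors aligned reads to rn4 with Bowtie2 2.1.0 and counted them per transcript with HTSeq 0.5.4p3, which drops reads shared by overlapping rows, and strand use was not given in the sources used here. The deposited values are a normalized signal in CPM, counts divided by TMM-scaled library sizes of the edgeR package. Whole reads were recovered from them, with 100% of values whole within 1e-06 of the count. The table holds 17221 transcript rows, with spans but no exons, so levels were not compared between genes.

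Features with both replicates of a group at 1 CPM or more (9820) entered a two-sided limma 3.58.1 test (lmFit and trended eBayes, R 4.3.3) of log2(CPM + 1) over all 6 libraries, with serum as the only term and Benjamini-Hochberg adjustment over all features. Fold changes are on that scale, which understates low genes. The planned test assumed CPM, and the column sums (980853 to 1028404) vary with the TMM factors, so the unit is given as a signal. Alternatives were a replicate block, edgeR 4.0.16, DESeq2 1.42.0, limma-voom, other scalings, a pseudocount of 0.1, no filter, and leaving out each library. The numbers pair the libraries, since each group holds cells of rats 1 and 2 by its labels: differences between these rats correlated across features by 0.59 (MS+ and MS−), 0.49 (MS+ and FBS) and 0.62 (MS− and FBS). The 2 libraries of a group differed by more than counting noise (chi-square per degree of freedom 13.6 to 15.1). Both limma fits, unblocked edgeR and limma-voom were run on simulated counts. These held no difference between rats, so they could not check what the block adds.

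The members, roles and related lists were chosen with earlier results of these data known. Named with values in every library were, per role and comparison, the largest rise and fall past the threshold in either fit (4 for the synthetases), plus Atf4 and Asns; Psat1, Shmt2, Slc7a1 and Atf5 were added after their values were seen. From each related list at most the 2 members with the largest changes past the threshold were named, and Eif2ak4 besides. Cebpb, Ddit4, Pck2, Sesn3 and Vldlr were added after their values were seen. Coordinates are those of rn4, 1-based. RefSeq windows of GRCr8 were used for sequence and names only. PCR copies were not marked, so floors cover counting error only.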

Additional observations from a re-analysis of the deposited data

How the results depend on the processing

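Counts of members, changes of the genes named with a value and the medians of groups and lists were recomputed under 15 alternatives, all planned. With the rat as a replicate block, which follows the pairing in the labels, the members past the adjusted threshold went from 0 to 11 in MS+ against MS−, from 4 to 12 in MS+ against FBS and from 9 to 27 in MS− against FBS; a blocked edgeR fit gave 11, 15 and 27. Unblocked DESeq2 gave 3 in MS+ against MS− and 16 in MS− against FBS. Without the filter on low values, which adds features to the adjustment, 2 members passed in MS+ against FBS and 4 in MS− against FBS. Leaving out 1 library gave 0 to 3 calls in MS+ against FBS and 0 to 7 in MS− against FBS, and 0 in MS+ against MS− each time. Under the study's thresholds these ranges were 1 to 4 and 3 to 7. The median log2 change of the members ranged from −0.64 to −0.42 in MS− against FBS, from −0.35 to −0.13 in MS+ against FBS and from 0.17 to 0.28 in MS+ against MS−. Of the 114 member changes (38 members in 3 comparisons), the 50 called with or without the block kept their direction under every alternative, while 30 of the other 64 changed sign under at least 1, all with a size of 0.23 or less. Among those whose value is given, leaving out 1 library gave in MS+ against FBS −0.39 to 0.11 for Asns (positive without FBS replicate 1), −0.36 to 0.10 for Shmt2 (likewise), −0.12 to 0.26 for Atf4 (negative without FBS replicate 2) and −0.0496 to 0.0566 for Slc7a1. With DESeq2 size factors, library totals, edgeR and limma-voom Slc7a1 was at −0.000144, −0.0450, −0.00106 and −0.00148. In MS− against FBS Nars ranged from −0.30 to 0.21 when 1 library was left out, and in MS+ against MS− Phgdh from −0.23 to 0.28, Slc38a2 from −0.0886 to 0.27, Atf5 from −0.32 to 0.0431 and Ddit3 from −0.58 to 0.12. Of 765 recomputed medians of groups and lists, 61 moved by more than the spread between rats. Where a library was left out, its lone partner was assumed to vary like the other groups. The blocked fit was not repeated without single libraries. With 2 libraries a group precision is limited, and for Ddit3, Cth and Pycr1 few reads limit it further. For the results not named here, the cause of a change was not tested.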
